A study of Arabidopsis thaliana with 6 samples.

Results

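Xyloglucan endotransglucosylase/hydrolase (XTH) genes were examined in microdissected root meristems of Arabidopsis thaliana that overexpress the microRNA miR396. The members were all probe sets whose annotated gene symbol is XTH followed by a number, 9 of the 22810 probe sets on the array, and each represents a different gene, 9 of the 13356 genes that the annotation pairs with a probe set of their own. They are XTH16, XTH18, XTH19, XTH20, XTH21, XTH26, XTH29, XTH32 and XTH33. The XTH family was listed with 33 loci, all of which were found in the RefSeq gene table of assembly TAIR10.1, so most of the family was not analysed here. One further gene of the family, XTH27, has a probe set under its older name EXGT-A3 and is described separately.

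Seedlings of 35S:miR396, in which a constitutive viral promoter drives miR396 in most cells and not in the meristem alone, gave 3 arrays. Wild-type (WT) seedlings gave the other 3. The genotype field calls the 35S:miR396 samples miR396 overexpression and gives no further allele, and all seedlings were untreated, grown in long days on vertical agar medium with sucrose, and harvested 7 days after sowing. The replicates are called biological, but nothing states how their plants were grown apart. Each p-value therefore sets a difference between the groups against the spread between these samples only. The levels are log2 GCRMA values, a microarray signal in which 1 unit is a doubling.

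Xyloglucan is the main hemicellulose of the primary wall in plants such as Arabidopsis, where it binds to cellulose microfibrils. XTH enzymes cut its backbone in the wall. Most of them join the new end to another xyloglucan chain, which lets the network be remodelled without being dissolved, and a small branch of the family can hydrolyse the chain instead. In roots, this activity is best known from cells that begin to elongate as they leave the meristem, and from root hairs.

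Testing was limited to the 11364 probe sets that reached a log2 value of 4 in 3 or more arrays, counted over both groups together. With limma, 25% of them (2838) had an adjusted p under 0.05, 12.7% higher and 12.3% lower in 35S:miR396. The values of the 2 groups did not overlap at 45.7% of the tested probe sets. Pearson correlations across probe sets, not across replicates, were 0.978 to 0.990 within 35S:miR396, 0.988 to 0.993 within WT and 0.944 to 0.976 between the groups. Neither the 7 growth-regulating factor (GRF) genes that miR396 targets nor the 9 listed meristem markers had a named probe set, so genotype and tissue rest on the labels. Among the markers listed for other root cell types, only 2 of the 7 root hair genes were named. EXPA7 and EXPA18, both expansins of root hair cells, stayed at 2.38 or below in every array, and their summed signal on the linear scale was 9.54 to 9.96 in 35S:miR396 and 9.54 in WT. The 7 markers of differentiated endodermis, 5 of xylem and 3 of root cap were not analysed here.

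XTH16 was lower and XTH21 higher in 35S:miR396, while XTH18 and XTH19 gave values that did not pass the test. These 4 genes passed the filter. XTH32 reached the filter level in 2 arrays only, and the other 4 members lay at or near the floor of the arrays. Among the 4 tested members, 1 passed higher and 1 lower, so the 2 called genes went in opposite directions. The median log2 fold change of the 4 was 0.11, against -0.0145 over all tested probe sets. Whether the family moved as a group was not tested. With 4 tested genes these counts cannot be set apart from the 25% of all tested probe sets that passed. XTH18 and XTH21 reached the filter level mostly in 35S:miR396. For XTH18 this was in 2 arrays of 35S:miR396 and 1 of WT, and for XTH21 in 3 arrays of 35S:miR396 and 1 of WT. Neither the counts nor the median of the tested members therefore lends support to a rise.

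**Figure D1:**
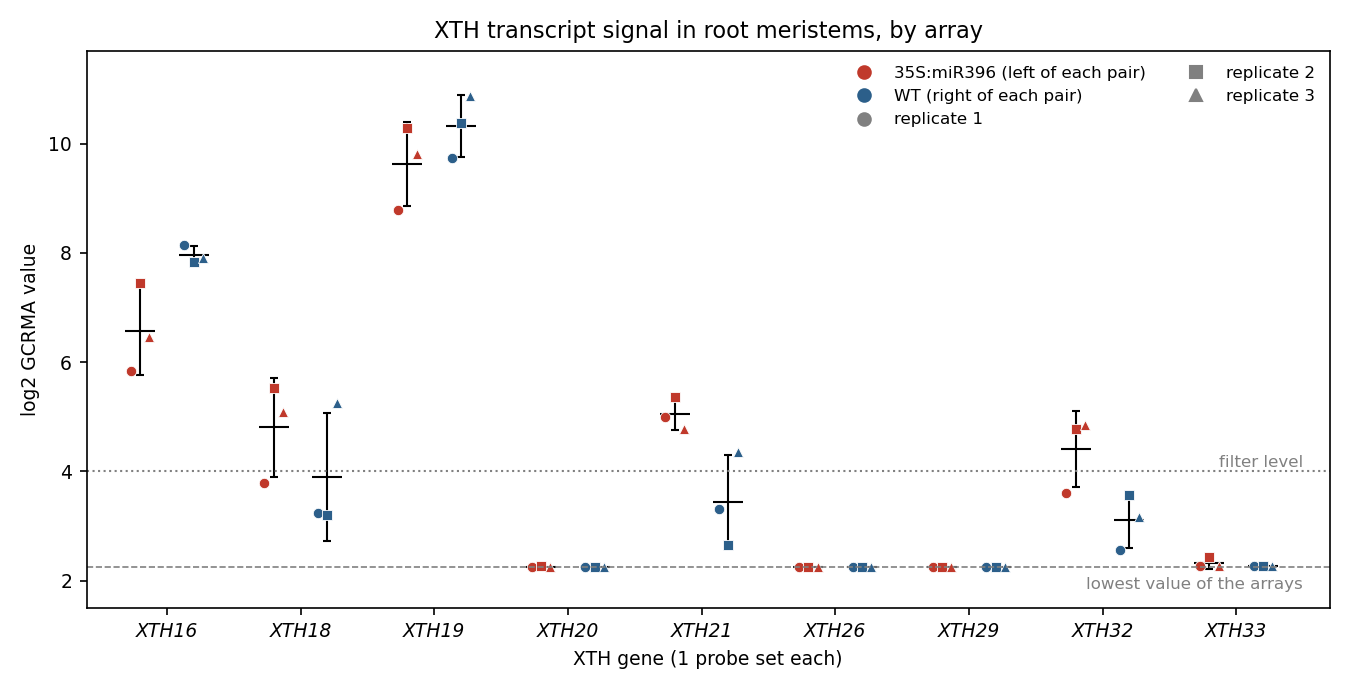
Log2 GCRMA values of the 9 XTH genes in each array, with 35S:miR396 in red to the left of WT in blue; the marker shape gives the replicate number, and the horizontal tick and bar give the mean and SD of 3 arrays. The groups are separate at XTH16, XTH21 and, by a narrow gap, XTH32, where 45.7% of all tested probe sets had separate groups. XTH20, XTH26, XTH29 and XTH33 lie near the lowest value of the arrays.

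XTH16 is an endotransglucosylase of the large branch of the family that rejoins xyloglucan chains. Its log2 values were 5.83, 7.44 and 6.46 in replicates 1, 2 and 3 of 35S:miR396, against 8.14, 7.84 and 7.91 in WT. The groups do not overlap, and the WT arrays lie close together while those of 35S:miR396 are spread widely, with replicate 2 nearest to WT. The mean was 6.58 ± 0.81 in 35S:miR396 and 7.96 ± 0.16 in WT (SD, n = 3 each). XTH16 was thus 2.62-fold lower in 35S:miR396, with a log2 fold change of -1.39 ± 0.36 (SE; 95% confidence interval -2.24 to -0.54; limma, adjusted p = 0.0325). Its fold change ranked 62 from the lowest of the 11364 probe sets. In tissue samples of this kind, fewer cells that make a transcript and less of it per cell cannot be told apart.

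The call of XTH16 was not stable when single arrays were left out. It was lost without replicate 1 of 35S:miR396, where the log2 fold change was -1.02, and without replicate 3, where it was -1.33. It was also lost without replicates 1, 2 and 3 of WT, each left out alone, at -1.30, -1.45 and -1.42. Calls over all tested probe sets fell as well in each of these fits, from 2838 to between 1052 and 1606. Without replicate 2 of 35S:miR396 the value was -1.82 and the call was kept, with an adjusted p by limma of 0.00252. Over all 13 alternative settings the adjusted p ran from 0.00251 to 0.164, with XTH16 called in 7, and the sign was negative in every one.

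XTH21 is a gene of the root-expressed part of the family, and loss of its function has been linked to shorter primary roots. Its log2 values were 4.99, 5.36 and 4.78 in 35S:miR396, against 3.31, 2.65 and 4.36 in WT. The 3 values of 35S:miR396 lie together and above all of WT, where replicate 3 is the highest and lies nearest to 35S:miR396. The mean was 5.05 ± 0.29 in 35S:miR396 and 3.44 ± 0.86 in WT (SD, n = 3 each). XTH21 was 3.04-fold higher in 35S:miR396, with a log2 fold change of 1.61 ± 0.40 (SE; 95% confidence interval 0.65 to 2.56; limma, adjusted p = 0.0299), and it ranked 129 from the highest. XTH21 reached the filter level of 4 in 3 arrays of 35S:miR396 and 1 of WT. The group where it was higher thus brought it into the test, and without a filter the call was lost (limma, adjusted p = 0.152). The WT level of XTH21 is low on this array, where the background correction draws dim signals toward a floor of 2.25. How this changed the size of the fold was not tested.

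The call of XTH21, like that of XTH16, was lost when single arrays were left out. Without replicates 1, 2 and 3 of 35S:miR396 the log2 fold change was 1.63, 1.45 and 1.74, and without replicates 1 and 2 of WT it was 1.54 and 1.21, with no call in any of these 5 fits. Calls over all tested probe sets fell in these fits too, except without replicate 2 of 35S:miR396, where they rose from 2838 to 3813. Without replicate 3 of WT the value was 2.07, and the call was kept with an adjusted p by limma of 0.0123. Over its 12 alternative settings the adjusted p ran from 0.00777 to 0.152, and the sign was positive in every one.

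XTH18, XTH19 and XTH20 belong to a group of closely related genes known for expression in roots, and XTH18 and XTH19 are adjacent on chromosome 4. XTH19, known from dividing and elongating root cells and from the healing of cut stems, had log2 values of 8.78, 10.29 and 9.81 in 35S:miR396, against 9.74, 10.38 and 10.87 in WT. The groups overlap, and replicate 1 is the lowest array of its group in both. The mean was 9.63 ± 0.77 in 35S:miR396 and 10.33 ± 0.57 in WT (SD, n = 3 each). The log2 fold change of -0.70 ± 0.41 (SE; 95% confidence interval -1.67 to 0.28) did not pass (limma, adjusted p = 0.246). It was -0.27 without replicate 1 of 35S:miR396 and -0.43 without replicate 3 of WT.

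XTH18 had log2 values of 3.79, 5.53 and 5.09 in 35S:miR396, against 3.23, 3.20 and 5.25 in WT. Replicate 1 of 35S:miR396 and replicate 3 of WT lie among the values of the other group, so the groups overlap widely. The log2 fold change was 0.91 ± 0.65 (SE; 95% confidence interval -0.61 to 2.43; limma, adjusted p = 0.324). It was 1.42 without replicate 1 and 0.55 without replicate 2 of 35S:miR396, and 0.58, 0.56 and 1.59 without replicates 1, 2 and 3 of WT. This interval holds both no change and a difference above 2-fold in favour of 35S:miR396, so these arrays do not settle its direction. XTH20, which with XTH19 is a target of a wound-induced NAC factor in stems, ran from 2.25 to 2.27 in 35S:miR396 and stood at 2.25 in each WT array, all within 0.1 of the lowest value of the array. How much of these signals came from near-identical relatives was not tested, since the probes' sequences were not used here.

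XTH32 belongs to the branch of the family with predicted hydrolase activity. Its log2 values were 3.60, 4.78 and 4.84 in 35S:miR396, against 2.56, 3.57 and 3.17 in WT. The groups do not overlap, but the lowest array of 35S:miR396 and the highest of WT are nearly level. The mean was 4.40 ± 0.70 in 35S:miR396 and 3.10 ± 0.51 in WT (SD, n = 3 each). It missed the filter and was tested only in the fit without one, where the log2 fold change of 1.31 ± 0.46 (SE) did not pass (limma, adjusted p = 0.201).

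XTH26, known from root hairs, and XTH29, known from stress responses, stood at 2.25 in all 6 arrays. XTH33, whose product is held at the plasma membrane, had 2.26, 2.43 and 2.26 in 35S:miR396 and 2.26 in each WT array, and 5 of its 6 values were within 0.1 of the lowest. For these 3 genes and XTH20 the arrays give no measurable level in either group and hence no fold. The root hair markers EXPA7 and EXPA18 were at the same floor in nearly all arrays.

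XTH27, the family member annotated as EXGT-A3 and known from vein development, had log2 values of 6.92, 7.15 and 7.03 in 35S:miR396, against 6.93, 6.97 and 7.46 in WT. The groups overlap. EXGT-A3 had a log2 fold change of -0.08 ± 0.16 (SE; 95% confidence interval -0.45 to 0.28; limma, adjusted p = 0.711), and the sign turned without replicate 3 of WT (0.09).

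The tested XTH genes varied strongly between arrays of the same group, though not always in both groups. The SD within groups, pooled over both, was 1.05 for XTH18, 0.68 for XTH19, 0.64 for XTH21 and 0.58 for XTH16 on the log2 scale. The median over all tested probe sets was 0.13. In 35S:miR396 and WT apart, the SD was 0.81 and 0.16 for XTH16 and 0.29 and 0.86 for XTH21. It was 0.90 and 1.18 for XTH18 and 0.77 and 0.57 for XTH19. Since the spread depends on the level, each gene was set beside the probe sets within 0.5 of its own mean log2 value. XTH18 exceeded 99.7% of 1619 such probe sets, and XTH19 exceeded 99.7% of 651. XTH16 was above 98.9% of 1942, and XTH21 above 97.4% of 1410. EXGT-A3 had an SD within groups of 0.23, at percentile 80.1 of all tested probe sets. A wide spread was not particular to the XTH genes. Among all tested probe sets, the percentiles of the SD ran from 98.2 to 99.8 for the 4 XTH genes (median 98.8) and from 58.1 to 99.3 for 8 tested expansins (median 95.9), another family of wall-loosening proteins. For 6 tested GH9 endoglucanases they ran from 51.5 to 99.5 (median 90.7). These shares are descriptions of 6 arrays and were not tested.

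**Figure D2:**
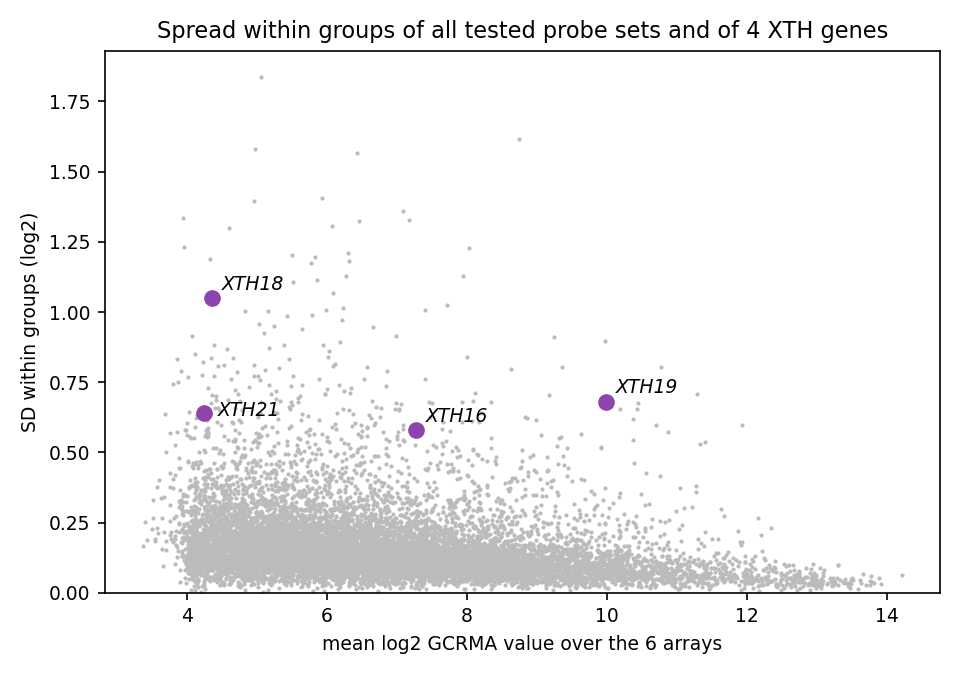
SD within groups against the mean log2 GCRMA value of each of the 11364 tested probe sets (grey points), with the 4 tested XTH genes in purple. All 4 lie at the upper edge of the cloud at their level, with SDs of 0.58 to 1.05 against a median of 0.13.

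Replicate 2 of 35S:miR396 was the highest of its group at all 4 tested XTH genes, which was the case at 5 of 8 tested expansins, 4 of 6 GH9 genes and 37.8% of all tested probe sets. At the 2838 called probe sets, the median shift of replicate 2 from the WT mean was 74.8% of the mean shift of replicates 1 and 3. For XTH16 this share was 28.9% and for XTH19 3.29%, both genes whose mean was lower in 35S:miR396. For XTH21 it was 133% and for XTH18 298%, both genes whose mean was higher. Replicate 2 thus stood nearer to WT than the other 35S:miR396 arrays at XTH16 and XTH19, and beyond them at XTH18 and XTH21. This follows from its being the highest of its group at all 4 genes and is no separate pattern. XTH18 and XTH19 were not called and their groups overlap, unlike XTH16 and XTH21, so their shares are not on a par with the 74.8%.

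The responses of the 4 tested XTH genes were also set against each other within arrays. The log2 response of XTH16 minus that of XTH21 was -2.99, the widest gap of the 6 pairs, and that of XTH18 was 1.61 above that of its neighbour XTH19. For 4 of the 6 pairs the two-sided exact permutation p was 0.1, the smallest that 3 against 3 arrays allow, and it was 0.15 after Benjamini-Hochberg adjustment over the 6 pairs. The other pairs were XTH16 with XTH19, at a difference of -0.69 (exact permutation p = 0.3), and XTH18 with XTH21, at -0.69 (p = 0.4 by the same test). None of the 6 differences could reach an adjusted p under 0.05 in this design. For XTH16 with XTH21 the exact permutation p of 0.1 was fixed beforehand, since the groups were already separate in opposite directions at these 2 genes. No conclusion on differing responses is drawn from these p-values.

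**Figure D3:**
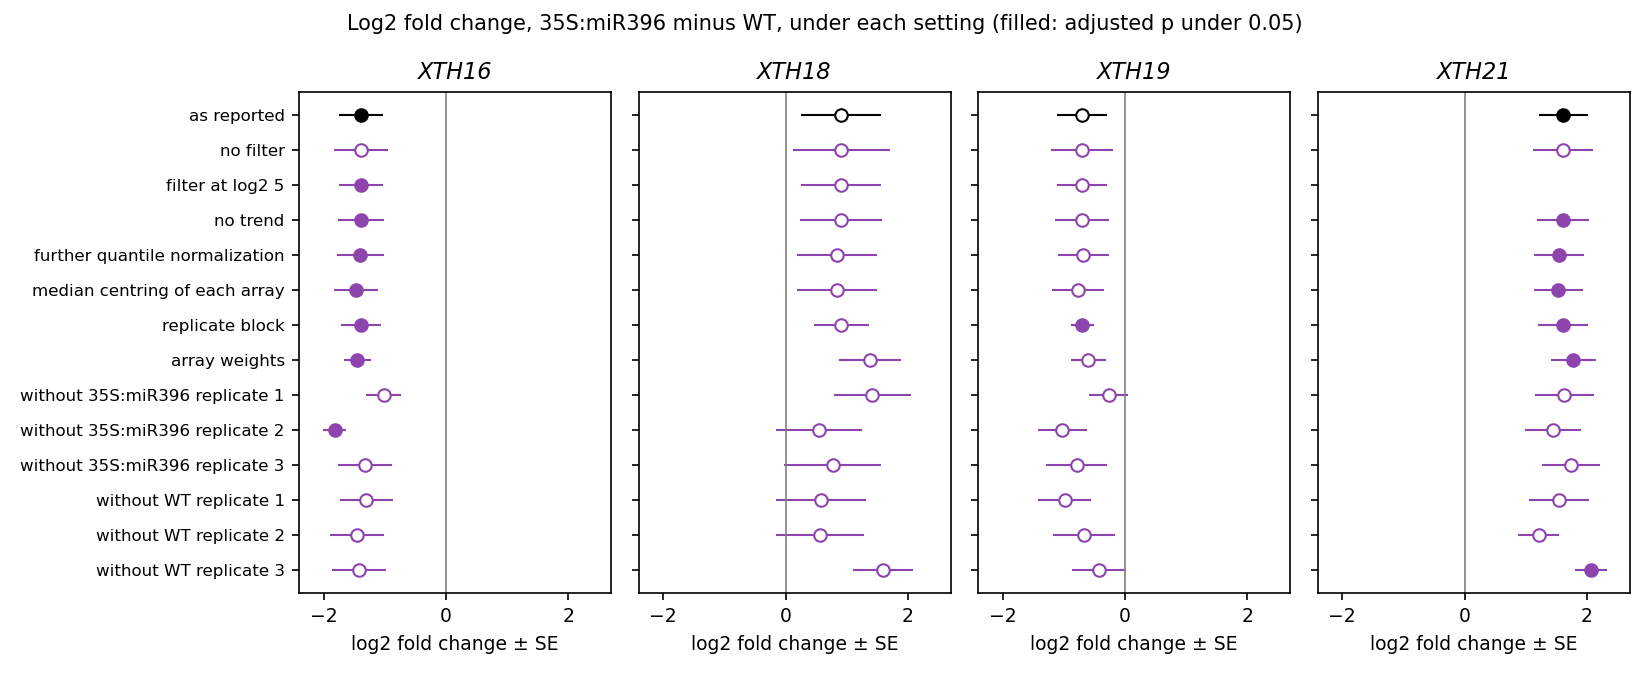
Log2 fold change, 35S:miR396 minus WT, with its SE for the 4 tested XTH genes in the reported fit (black) and under each alternative (purple); a filled point passed at an adjusted p under 0.05, and XTH21 has no point where the filter was set at 5. Each gene kept its sign in every setting, while the calls of XTH16 and XTH21 come and go as single arrays are left out.

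The genes that make xyloglucan showed small values. Of 16 listed genes of xyloglucan synthesis, a named probe set existed for 5, and 3 were tested, none of which passed, where 25% of all tested probe sets did. With so few genes a count of 0 cannot be set apart from that share. All 5 named ones belong to the CSLC family of backbone synthases. CSLC6 had log2 values of 5.50, 6.15 and 6.11 in 35S:miR396, against 6.30, 6.31 and 6.24 in WT, which do not overlap, at a log2 fold change of -0.36 ± 0.18 (SE; limma, adjusted p = 0.166). CSLC04 stood at -0.17 ± 0.15 and CSLC5 at 0.02 ± 0.09 (log2 fold change, SE), and the sign of CSLC5 turned under 4 alternatives. Without replicate 1 of 35S:miR396 CSLC6 stood at -0.15 and CSLC04 at -0.02, and without replicate 2 CSLC04 stood at -0.31. ATCSLC08 reached at most 3.89 and CSLC12 at most 2.30 on the log2 scale, so neither was tested. None of the 3 listed genes that trim xyloglucan was named. Of 9 genes of primary wall cellulose synthesis only COB was named, a protein needed for oriented cell expansion, and it stood at -0.23 ± 0.11 (log2 fold change, SE; limma, adjusted p = 0.150), or at -0.14 without replicate 1 of 35S:miR396. At an unadjusted p under 0.05, 0 of these 4 tested genes passed, and 0 passed in limma without the trend. The median log2 fold change of the 4 was -0.20.

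Expansins, which loosen walls without cutting polymers, and GH9 enzymes, which cut beta-1,4-glucans, act on the same wall and served as the nearest families for comparison. Of 18 expansins with a probe set 8 were tested, and 2 passed, both higher in 35S:miR396, the same share as the 25% of all tested probe sets, with a median log2 fold change of 0.30 over the 8. EXPA20 had log2 values of 6.06, 6.29 and 6.74 in 35S:miR396, against 4.33, 4.54 and 5.37 in WT, with no overlap, at a log2 fold change of 1.61 ± 0.29 (SE; limma, adjusted p = 0.0110). For EXPA15 the log2 fold change was 0.39 ± 0.11 (SE; limma, adjusted p = 0.0380). The EXPA15 call did not survive leaving out replicate 2 (0.32) or 3 (0.38) of 35S:miR396, or replicate 1 (0.35) or 2 (0.33) of WT. It was also lost with no trend of the variance prior (adjusted p = 0.0566 by limma), which left 1 expansin called, and under median centring (0.31). Of 15 GH9 genes 6 were tested, with a median of -0.06. GH9B7 passed, with log2 values of 8.60, 8.93 and 8.83 in 35S:miR396, against 9.20, 9.25 and 9.39 in WT, at a log2 fold change of -0.50 ± 0.10 (SE; limma, adjusted p = 0.0153). This call did not survive leaving out replicate 2 (-0.51) or 3 (-0.44) of WT. Whether the XTH genes differ from either family was not tested.

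**Figure D4:**
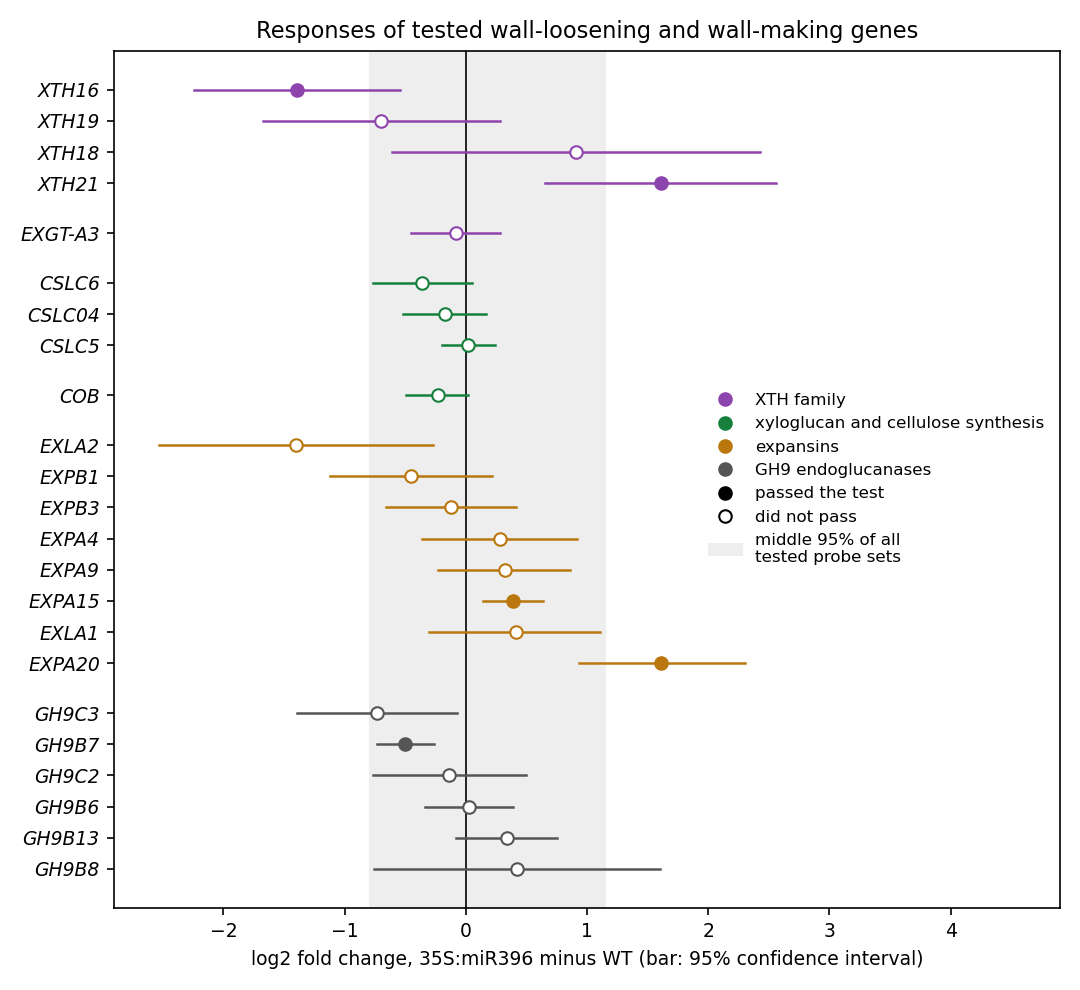
Log2 fold change, 35S:miR396 minus WT, with its 95% confidence interval for every tested gene of the XTH family, of xyloglucan and cellulose synthesis, of the expansins and of the GH9 endoglucanases; filled points passed at an adjusted p under 0.05, and the grey band holds the middle 95% of all tested probe sets. XTH16 at -1.39 and XTH21 at 1.61 lie outside the band on opposite sides, as do the expansins EXLA2 at -1.40 and EXPA20 at 1.61, and the genes of xyloglucan synthesis lie between -0.36 and 0.02.

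Profiles most like those of XTH16 and XTH21 were sought among 872 other tested probe sets with a gene symbol of their own, as the root mean square difference of mean-centred log2 values over the 6 arrays. For XTH16 they were scpl46, a serine carboxypeptidase-like gene, at a difference of 0.249, OCT5, an organic cation transporter-like gene, at 0.252, and TUB1, a beta-tubulin gene, at 0.304. TUB1 had log2 values of 8.53, 9.63 and 9.25 in 35S:miR396, against 10.07, 10.01 and 10.24 in WT. For XTH21 they were LCR68, a small cysteine-rich secreted peptide gene, at 0.240, iqd15, a gene of the IQD calmodulin-binding family, at 0.428, and EXPA20 at 0.435. LCR68 had log2 values of 10.15, 10.19 and 9.72 in 35S:miR396, against 8.36, 7.67 and 8.77 in WT. These genes were picked for their likeness over the same 6 arrays, so the shared pattern is no separate observation.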

How the data were processed

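The values deposited by the authors are log2 signals of probe sets, from 6 biotin-labelled Affymetrix arrays. Per the submitters' processing notes the tool was GCRMA, which corrects each probe's background from its sequence, brings arrays to a common scale and combines the probes of a set. Its version is not given in the sources used here. The log2 scale was read from the values, which run from 2.25 to 14.28. Array medians were 3.96 to 3.99 in 35S:miR396 and 3.88 to 3.91 in WT, so they did not overlap between the groups. For arrays, the number of samples limits the precision. Groups and replicate numbers come from the sample titles.

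Gene symbols come from the platform annotation alone, which gives 1 gene for 13513, several for 503 and does not list 8794. Members, expansins and GH9 genes were matched by symbol. The other listed genes were matched by locus, read from the RefSeq gene table for the annotated gene. No probe set with several genes held an XTH symbol. The 64 control probe sets were dropped, and a log2 value of at least 4 in at least 3 arrays was required. R 4.3.3 and limma 3.58.1 (lmFit, and eBayes with a trend of the variance prior) were used, two-sided, with the Benjamini-Hochberg adjustment over 11364 probe sets, at 0.05. In data simulated from these probe sets for this comparison, the fit recovered 46.5% of 71 probe sets shifted 1.5-fold. It recovered 78.6% of 70 shifted 2-fold and 93.2% of 59 shifted 4-fold. The shifted probe sets were drawn at random from all tested ones, whose median SD within groups was 0.13. The 4 tested XTH genes had SDs of 0.58 to 1.05, so these shares do not apply to them. Recovery at such SDs was not estimated.

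Members, gene lists and alternatives were chosen with earlier results of these data known, and the expansin and GH9 lists after the values were seen. Named genes were all members, family members under other symbols, up to 4 tested genes of each wall list, and the 3 profiles nearest to XTH16 and to XTH21. The called and illustrative expansin and GH9 genes were chosen after their values were seen. A list gene took its brightest probe set. Alternatives were no filter, a filter at 5, no trend, quantile normalization, median centring, a replicate block, array weights and each array left out.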

Additional observations from a re-analysis of the deposited data

How the results depend on the processing

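The signs of XTH16, XTH18, XTH19 and XTH21 held under every alternative run. The XTH16 call held in 7 of 13 alternatives and the XTH21 call in 6 of 12. Both calls held with no trend, further quantile normalization, median centring, the replicate block and array weights. Of the 4 tested XTH genes, 2 were called; 0 were called with no filter on dim probe sets, where all 9 members enter, and 1 with the filter at 5, which leaves out XTH21. Leaving out single arrays gave 0 to 1 called XTH genes, and the replicate block gave 3, XTH19 being added at -0.70 (limma, adjusted p = 0.0451). Whether the replicate numbers pair the arrays is not stated, and 3 arrays per group cannot settle it. Deviations from group means of same-numbered arrays correlated at 0.40, -0.09 and 0.14 for numbers 1, 2 and 3. Replicates 1 and 3 of 35S:miR396 correlated best with their own number in WT. Replicate 2 correlated best with replicate 3 of WT, at 0.35. The block changed no other XTH call. The lists of xyloglucan synthesis, xyloglucan trimming and primary wall cellulose gained no call in any setting. Uncalled expansin and GH9 genes were not followed across all settings. Over all probe sets 2838 were called, 50.7% of them higher, against 941 with no filter, 2844 with the replicate block, 4749 with array weights and 1052 to 3813 with single arrays left out. Median centring gave 3406 calls, of which 34.0% were higher. It brings the arrays to a common median, and every 35S:miR396 array had a higher median than any WT array. Log2 fold changes were therefore lower under this setting, at -1.47 for XTH16 and 1.53 for XTH21. Without a filter the SE of XTH16 was 0.44 in place of 0.36 and that of XTH21 was 0.49 in place of 0.40. The value of EXGT-A3 ran from -0.18 to 0.09 with single arrays left out and turned sign without replicate 3 of WT. The sign of CSLC5 turned under median centring (-0.05), array weights (-0.03), and without replicate 2 of 35S:miR396 (-0.01) or replicate 3 of WT (-0.04), within a range of -0.04 to 0.07 with single arrays left out. With no filter, EXPA20, EXPA15, GH9B7, scpl46, OCT5, TUB1 and LCR68 lost their calls. Beyond the shift that median centring itself makes, the causes of these changes were not tested. Members near the floor of 2.25 limit what can be seen of XTH20, XTH26, XTH29 and XTH33.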

Other observations

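The same arrays stood at the ends of their groups across several wall families, a pattern chosen after the values were seen. Replicate 3 of WT was the highest WT array at 3 of 4 tested XTH genes, 6 of 8 expansins and 5 of 6 GH9 endoglucanases, against 39.4% of all tested probe sets. Replicate 1 of 35S:miR396 was the lowest of its group at 3 of 4 XTH genes, 5 of 8 expansins and 5 of 6 GH9 genes, against 31.7% of all tested probe sets. Replicate 2 of 35S:miR396 was the highest of its group at 4 of 4 XTH genes, 5 of 8 expansins and 4 of 6 GH9 genes, against 37.8% of all tested probe sets. Among the expansins, EXLA2 had log2 values of 2.94, 4.53 and 3.58 in 35S:miR396, against 4.29, 5.20 and 5.76 in WT, and its log2 fold change of -1.40 ± 0.48 (SE) did not pass limma's test (adjusted p = 0.0705). GH9C3 had 4.62, 5.03 and 4.95 in 35S:miR396, against 4.95, 5.78 and 6.07 in WT, at -0.73 ± 0.28 (SE; limma, adjusted p = 0.0951). Genes measured on one array share it, so these counts are descriptions with no test.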
